A study of Mus musculus with 4 samples.

Results

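Ribosomal proteins and translation initiation factors were examined in an ATAC-Seq data set of long-term hematopoietic stem cells (LT-HSCs) that carried or lacked Sin3B, a scaffold protein of a histone deacetylase corepressor complex. ATAC-Seq measures chromatin accessibility, because the Tn5 transposase inserts adapters mainly where nucleosomes leave DNA exposed. The peaks of interest were the rows of the table of differentially accessible peaks whose assigned gene name began with Rpl, Rps, Mrpl or Mrps and a digit, or with Eif and a digit, without pseudogene names. This gave 54 of the 5332 peaks in the table, assigned to 46 genes. Cytosolic ribosomal names held 23 peaks at 20 genes, mitochondrial ribosomal names 18 peaks at 15 genes, and initiation factor names 13 peaks at 11 genes. The name pattern also took in 5 peaks of kinases that are no part of a ribosome or initiation factor: Rps6ka1 with a pair of peaks, Rps6ka2 and Rps6ka5, which encode kinases of ribosomal protein S6 and related targets, and Eif2ak3, which encodes the eIF2α kinase PERK.

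The comparison was between Sin3B+/+ and Sin3B-/- LT-HSCs at homeostasis, in adult mice on a C57BL/6 background. The Sin3B-/- cells came from mice with floxed Sin3B alleles and the Vav1-iCre transgene, whose Cre is active throughout the hematopoietic system from fetal life on, so the comparison is not of an acute loss. The paper names the controls of this experiment both Sin3B+/+ and Sin3BF/F, the latter meaning floxed alleles. It lists the transgene in the genotype of the Sin3B-/- mice only. LT-HSCs were sorted from bone marrow as lineage-negative, Sca-1+, cKit+, Flk2-, CD48- and CD150+ cells. Each genotype had 2 libraries, each of them a pool of cells from 2 mice, and each was amplified for 12 PCR cycles. The amount of transposome was scaled to the number of cells obtained.

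The table held only peaks that had passed the authors' test of this genotype comparison at an FDR below 0.05. A difference between the genotypes was therefore a condition of entry for every peak described here, and the tests below are close to fixed by that selection. The levels are reads per peak multiplied by a factor for each library, and their sum over the table was 1657641 to 1986378 in the Sin3B+/+ libraries and 2837467 to 3102888 in the Sin3B-/- libraries. Levels were whole multiples of a library-specific step, and counted in those steps the order was the other way round, with 4836132 and 8705855 steps in the Sin3B+/+ libraries and 3102888 and 4541377 in the Sin3B-/- libraries. The direction of the whole table thus depends on the factors used to scale the libraries. No peak in the table was assigned to Sin3b, so the deletion itself could not be checked in these values. Among the LT-HSC markers listed for a check of cell identity, 4 of 10 had a peak in the table (Fgd5, Hoxb5, Procr and Slamf1), as did 3 of 3 megakaryocyte markers, 1 of 6 myeloid markers, 1 of 4 erythroid markers and none of the 6 lymphoid and 3 multipotent progenitor markers. A table of differential peaks cannot show which markers were accessible at equal levels in both genotypes.

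The cytosolic ribosome is built from a small and a large subunit, whose proteins are named Rps and Rpl, and translates the messenger RNAs of the nucleus. Mitochondria hold a separate ribosome, whose Mrps and Mrpl proteins are encoded in the nucleus and imported, and which makes a small set of respiratory chain proteins. Initiation factors bring the initiator tRNA, the messenger RNA and the small subunit together, find the start codon and join the large subunit. HSCs are known for a low rate of protein synthesis, and their function is sensitive to its increase. The promoters of cytosolic ribosomal protein genes are highly active in most cells, and many of their transcripts begin with a tract of pyrimidines that ties their translation to growth signals.

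Promoter sequences illustrate what lies in or beside the peaks at gene starts. Of the 46 genes, 37 had a RefSeq promoter (GRCm38.p6, 250 bases before to 50 after the start), and in 25 of them it overlapped the gene's own peak. A pyrimidine tract was searched as a C followed by at least 4 C or T, with its first base within 10 bases of the annotated start. A tract at the very start of the transcript gives many ribosomal protein transcripts their name of TOP mRNAs. The search did not require that exact position, so a match is not by itself such an element. The tract is shown in capitals, 5′ to 3′ on the strand of the gene, for 3 cytosolic ribosomal and 2 initiation factor genes. The promoter of each overlapped the gene's own peak. The Rps26 tract lies outside its peak (chr10:128626657-128627216), and the others lie inside theirs.
Rpl13a (chr7:45128722-45128751, minus strand): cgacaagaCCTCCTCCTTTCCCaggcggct
Rpl22l1 (chr3:28805500-28805529, plus strand): gcaagcccgttCTCTTCCCacggctgcagc
Rps26 (chr10:128626484-128626513, minus strand): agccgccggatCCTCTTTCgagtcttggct
Eif3f (chr7:108934403-108934432, plus strand): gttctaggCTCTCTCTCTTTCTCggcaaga
Eif2s3x (chrX:94212632-94212661, minus strand): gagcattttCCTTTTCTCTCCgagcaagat

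The tract was found near the start in 29.0% of all 32851 RefSeq promoters, and in 51.9% of 77 cytosolic ribosomal, 36.0% of 75 mitochondrial ribosomal and 25.0% of 48 initiation factor promoters, kinases left out. In the promoters that overlapped a peak of their gene it was found in 4 of 7 cytosolic ribosomal, 4 of 8 mitochondrial ribosomal and 2 of 7 initiation factor genes. The ETS core CCGGAAG, searched on both strands, is shown for a gene of the large cytosolic subunit and for Eif2b4, which encodes a subunit of the exchange factor of eIF2. The NRF1 core CGCATGCG, a palindrome bound by a factor known for nuclear genes of mitochondrial proteins, is shown for 2 mitochondrial ribosomal genes. The YY1 core AAGATGGC is shown for Rps27 and Eif4a1.
Rpl37, ETS core (chr15:5116578-5116607, plus strand): caccaagacccgCCGGAAGtagtttcctgg
Eif2b4, ETS core (chr5:31193121-31193150, minus strand): acccagtgcacgCCGGAAGttgtagtccgc
Mrpl17, NRF1 core (chr7:105811079-105811108, minus strand): ccgagttactgCGCATGCGtcctctgagac
Mrpl32, NRF1 core (chr13:14613105-14613134, minus strand): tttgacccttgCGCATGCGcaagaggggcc
Rps27, YY1 core (chr3:90213704-90213733, minus strand): aagaccttccgAAGATGGCgaagcaacacg
Eif4a1, YY1 core (chr11:69672571-69672600, minus strand): tgctgggttccAAGATGGCtgccccgccgc

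The ETS core was present in 8.86% of all promoters and in 32.5% of cytosolic ribosomal, 34.7% of mitochondrial ribosomal and 31.2% of initiation factor promoters. Among promoters that overlapped a peak of their gene it was present in 3 of 7, 2 of 8 and 2 of 7 of these classes. The NRF1 core was present in 1.87% of all promoters and in 3.90%, 9.33% and 6.25% of the classes. Of the promoters that overlapped a peak, 0 of 7, 2 of 8 and 1 of 7 held it. The YY1 core was present in 2.75% of all promoters and in 10.4%, 16.0% and 10.4% of the classes. Of the promoters that overlapped a peak, 2 of 7, 1 of 8 and 3 of 7 held it. With 7 or 8 promoters a class, these counts describe the promoters and allow no comparison with the class as a whole.

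All 54 peaks were higher in Sin3B-/- LT-HSCs, and in each of them both Sin3B-/- libraries lay above both Sin3B+/+ libraries. Of all peaks in the table, 95.7% were separated in this direction and 4.29% in the other, so the direction of these peaks was that of the table. By limma on log2(level + 1), with Benjamini-Hochberg adjustment over all 5332 peaks, 54 of 54 passed an FDR of 0.05 as higher and 0 as lower, beside 95.7% and 4.29% of the table. With a replicate block, 53 of 54 passed, beside 95% of the table. Since an exact two-sided permutation test of 2 libraries against 2 cannot give a p-value below 0.33, the limma values rest on a spread shared across all peaks, with a single SE of 0.22 for every log2 difference. Without Sin3B-/- replicate 2 the median log2 difference was 0.58 for cytosolic ribosomal, 0.63 for mitochondrial ribosomal and 0.55 for initiation factor peaks. Without Sin3B+/+ replicate 2 these medians were 0.53, 0.61 and 0.54.

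The 46 genes were part of a larger family. Of the genes annotated as protein-coding, 20 of 92 cytosolic ribosomal names (21.7%), 15 of 78 mitochondrial ribosomal names (19.2%) and 11 of 55 initiation factor names (20%) had a peak in the table, beside 3446 of 21924 protein-coding genes (15.7%). Without the kinase names the shares were 21% of cytosolic ribosomal and 21.3% of initiation factor genes. The 3 classes had a peak at similar rates, and no test was made of these shares. The table analysed here holds fewer peaks than the study describes for this comparison, so a gene without a peak in it may have one elsewhere, and such genes were not analysed here.

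**Figure D1:**
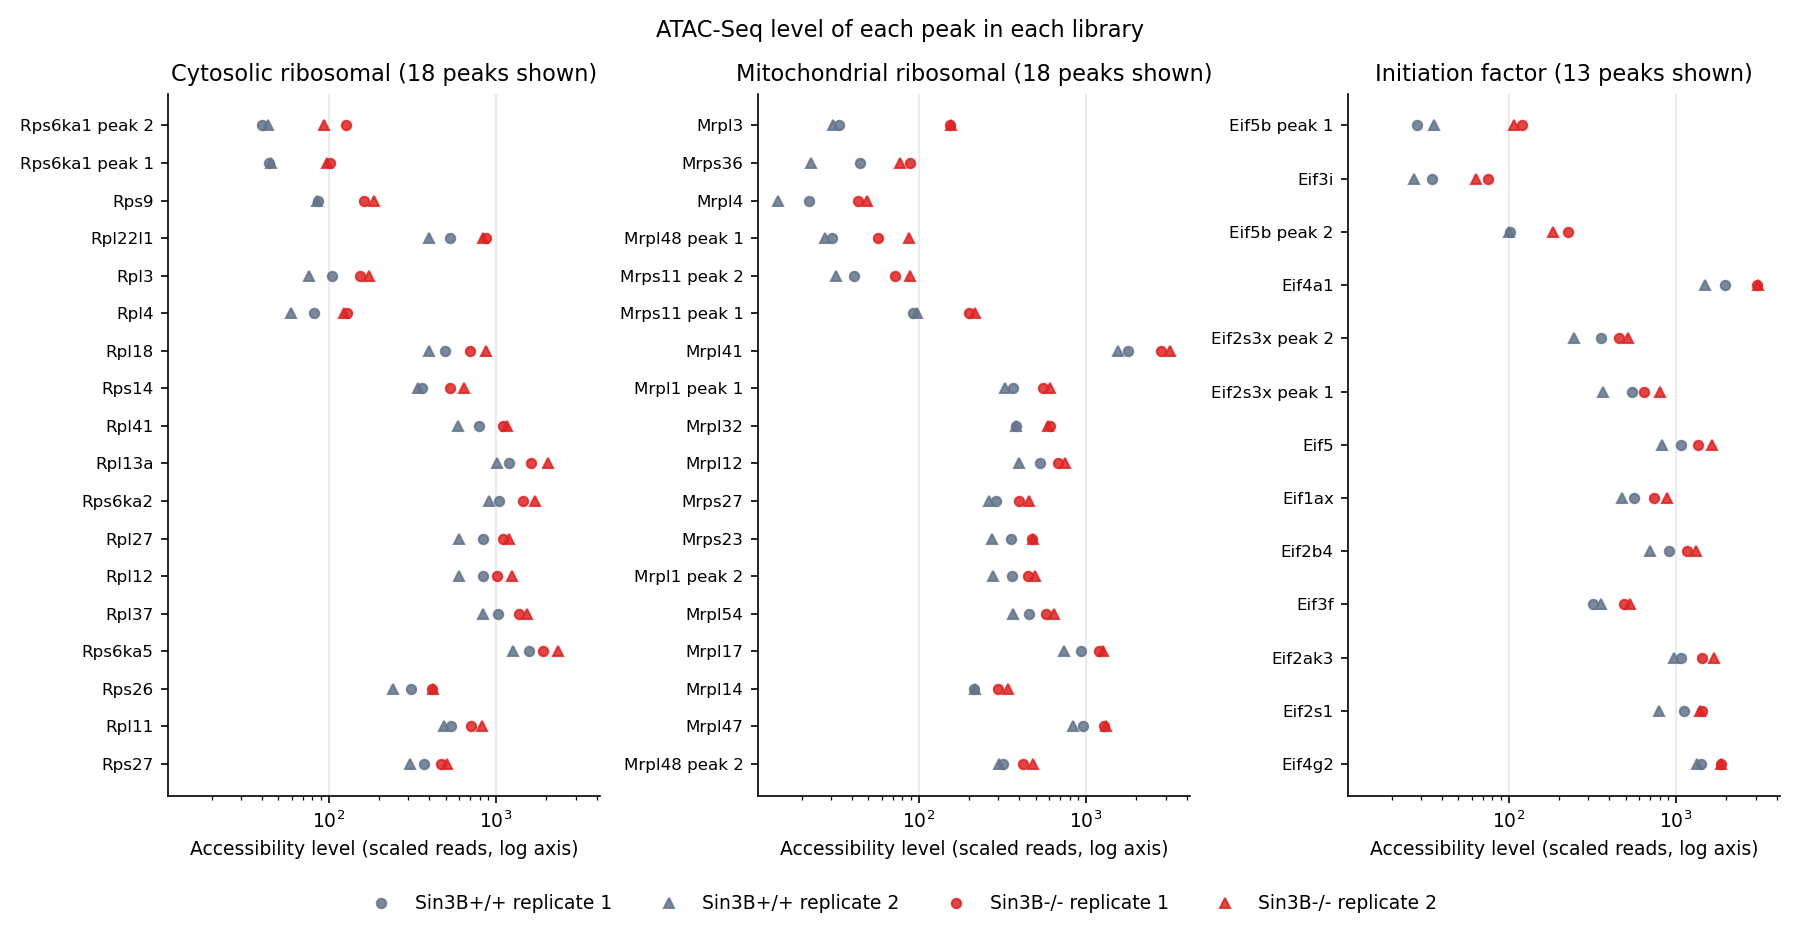
Level of 49 of the 54 peaks (scaled reads, log axis) in the 2 Sin3B+/+ libraries (grey) and the 2 Sin3B-/- libraries (red), with replicate 1 as circles and replicate 2 as triangles. Peaks are ordered within each class by their log2 difference, from the largest at the top, and in every row both red points lie to the right of both grey points.

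The median peak was higher by a factor of 1.64 for cytosolic ribosomal genes, 1.56 for mitochondrial ribosomal genes and 1.58 for initiation factors, beside 1.69 over the table. On the log2 scale of the group means the medians were 0.71, 0.64 and 0.65, beside 0.75 for the table. The median log2 level of the classes had a pooled SD between libraries of a genotype of 0.24, 0.16 and 0.18. Offsets shared by all peaks of a library enter that spread, so it does not measure a difference between classes, which was not tested. The median level of cytosolic ribosomal peaks was 533 and 399 in the Sin3B+/+ libraries and 709 and 834 in the Sin3B-/- libraries. For mitochondrial ribosomal peaks it was 338 and 276 against 435 and 483. For initiation factor peaks it was 559 and 476 against 739 and 889. In each class the lower Sin3B-/- library was above the higher Sin3B+/+ library, as over the table, where the medians were 214 and 180 against 319 and 343.

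The libraries of a genotype were not equal either. Sin3B+/+ replicate 1 was above replicate 2 in 48 of 54 peaks, with a median ratio of 1.23, and in 87.7% of the table, with a median ratio of 1.20. Sin3B-/- replicate 2 was above replicate 1 in 42 of 54 peaks, with a median ratio of 1.11, and in 72.0% of the table, with a median ratio of 1.09. With the median level of every library set to the same value, which lowered every log2 difference by 0.75, the table held 374 peaks called higher (7.01%) and 229 called lower (4.29%). Of the 54 peaks, 3 were then called higher, namely Mrpl3, Mrpl4 and the Eif5b peak 1, and 0 were called lower. The centred difference was below zero in 36 of the 54 and above zero in 18, and it was below zero in 2621 of 5332 table peaks. Within 1000 bp of the gene start it was below zero in 27 of 32 of these peaks, beside 1332 of 1869 in the table. Further away it was below zero in 9 of 22, beside 1289 of 3463 in the table. Relative to the other peaks of the table, then, 36 of these peaks stood below the median change and 18 above it.

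The peaks were also described by their position. A peak was counted as at the gene start when its centre lay within 1000 bp of the start of its assigned gene. This held for 13 of 23 cytosolic ribosomal peaks (56.5%, 95% Wilson interval 36.8 to 74.4), 10 of 18 mitochondrial ribosomal peaks (55.6%, 33.7 to 75.4) and 9 of 13 initiation factor peaks (69.2%, 42.4 to 87.3). Of all peaks in the table, 35.1% (33.8 to 36.3) were at a gene start. The intervals of the cytosolic ribosomal and initiation factor peaks lay above that share, and that of the mitochondrial ribosomal peaks included it. These intervals cover counting error only.

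At gene starts the classes moved by much the same amount. The median log2 difference was 0.67 for 13 cytosolic ribosomal peaks, 0.62 for 10 mitochondrial ribosomal peaks and 0.62 for 9 initiation factor peaks, beside 0.66 for the 1869 table peaks at a gene start. Their levels differed, with a median over the libraries of 756, 502 and 1182, beside 597 in the table. Away from gene starts the medians were 0.79 for 10 cytosolic ribosomal, 1.12 for 8 mitochondrial ribosomal and 1.08 for 4 initiation factor peaks, beside 0.83 for 3463 table peaks. These peaks were lower, with median levels of 163, 105 and 113, beside 162 in the table. Of the 32 peaks at gene starts 1 at least doubled, and of the 22 others 11 did. Over the table, 6.69% of peaks at gene starts and 31.5% of those away from them at least doubled.

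**Figure D2:**
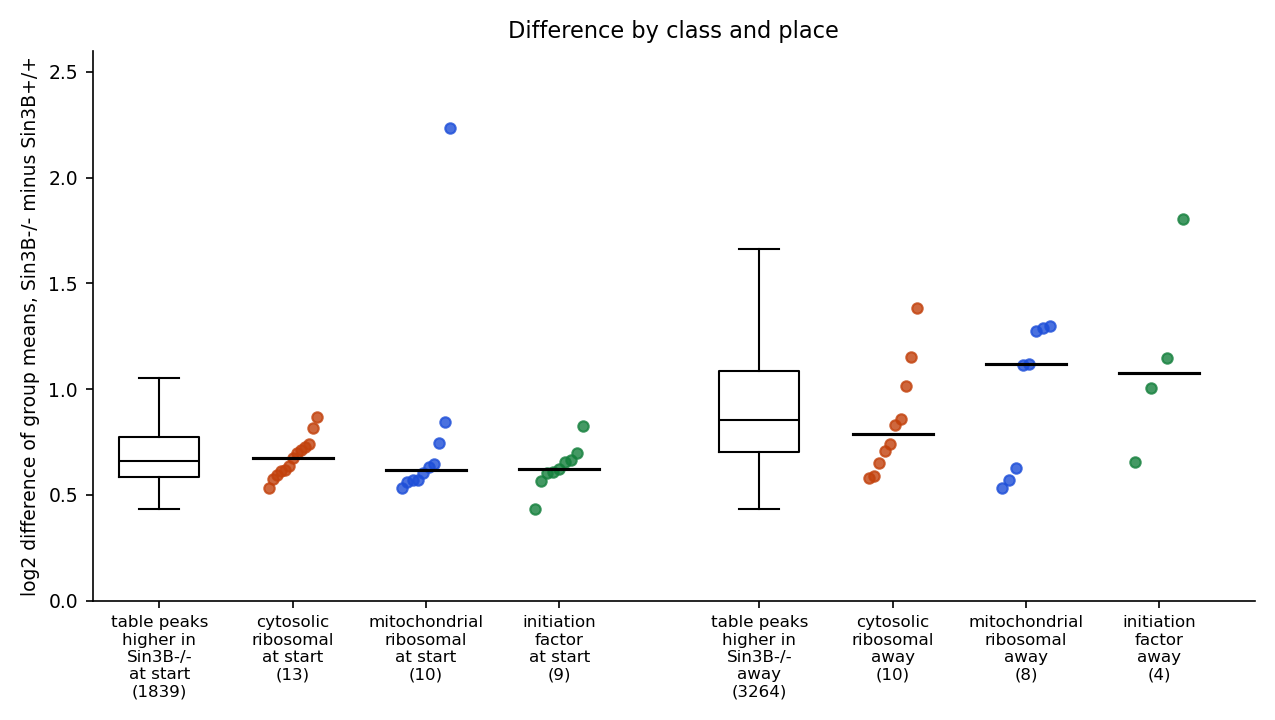
Log2 difference of the group means (Sin3B-/- minus Sin3B+/+) for each peak of the 3 classes, at the gene start and away from it, with the class median as a black line, beside box plots (median, quartiles and whiskers to the last point within 1.5 interquartile ranges) of the table peaks that were higher in Sin3B-/-. At gene starts the class medians are 0.67, 0.62 and 0.62, and away from them 0.79, 1.12 and 1.08.

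Position, level and selection moved together. Among table peaks that were higher in Sin3B-/-, the median log2 difference was 1.11 at mean levels below 100, 0.80 from 100 to 300, 0.65 from 300 to 1000 and 0.65 above 1000. The smallest difference in each of these ranges was 0.74, 0.55, 0.45 and 0.43, so a low peak had to differ more to be in the table. The 54 peaks had medians of 1.28 (10 peaks), 0.86 (7 peaks), 0.63 (23 peaks) and 0.62 (14 peaks) in the same ranges. At the lowest levels 1 of 10 peaks was at a gene start, and above 1000, 13 of 14 were. Differences by place can therefore not be told apart from differences by level in these values. Compared with the table's median in the same library, mitochondrial ribosomal peaks away from gene starts stood at -1.72 and -1.66 in Sin3B+/+ and -1.25 and -1.30 in Sin3B-/- on the log2 scale, and those at gene starts at 0.97 and 1.06 against 0.90 and 0.87. Over the table, the median centred log2 difference was -0.087 at gene starts and 0.082 away from them, which is the same direction in both places. Initiation factor peaks away from gene starts stood at -1.82 and -1.57 against -0.95 and -1.28, and those at gene starts at 2.32 and 2.13 against 2.08 and 2.01. Cytosolic ribosomal peaks away from gene starts overlapped between the genotypes, at -0.69 and -0.77 against -0.74 and -0.63, and those at gene starts stood at 1.65 and 1.56 against 1.44 and 1.54. None of these differences was tested.

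**Figure D3:**
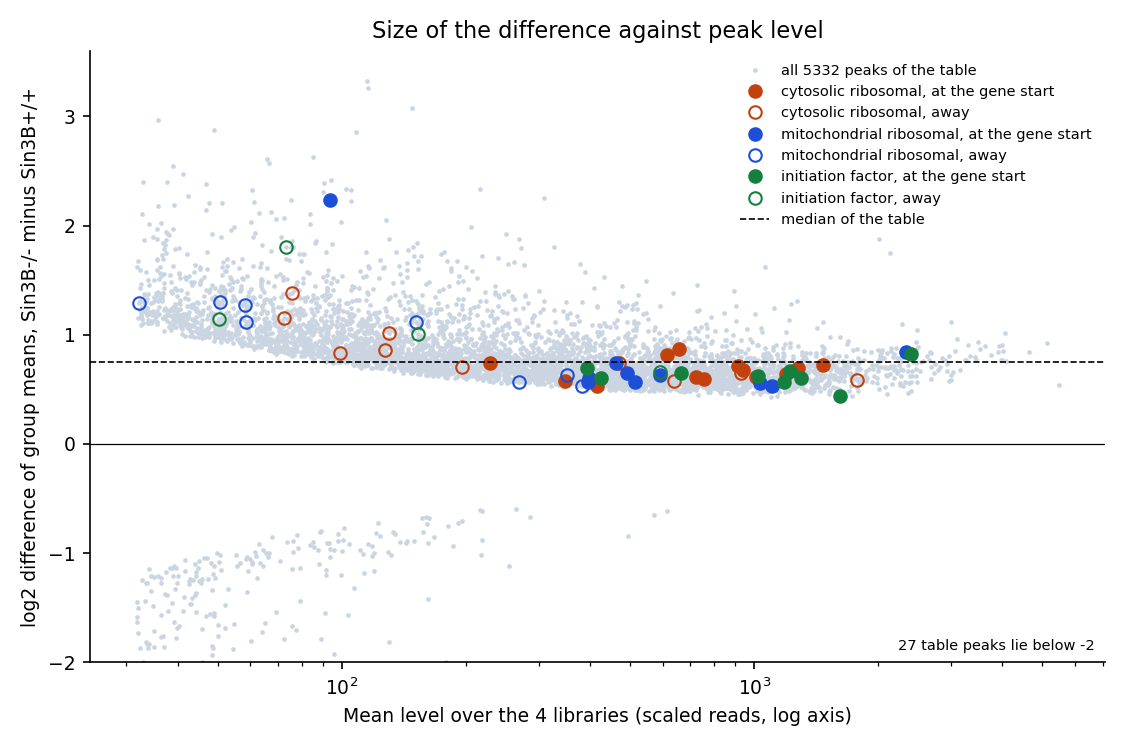
Log2 difference of the group means (Sin3B-/- minus Sin3B+/+) against the mean level over the 4 libraries (log axis) for all 5332 peaks of the table (grey) and the 54 peaks by class, filled at the gene start and open away from it. The vertical axis ends at -2, below which 27 table peaks lie, the dashed line is the table's median of 0.75, and the lower edge of the upper grey cloud falls as the level rises.

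Among cytosolic ribosomal names the largest changes were at a kinase gene. Rps6ka1 encodes RSK1, a kinase downstream of ERK. Its peak 2, a region of 467 bp in an intron (chr4:133879076-133879542, 8488 bp after the gene start), had levels of 39.9 and 43.2 in Sin3B+/+ and 126 and 94.0 in Sin3B-/- LT-HSCs, a 2.65-fold rise (log2 difference 1.37 ± 0.22 SE, limma adjusted p = 2.56e-09). Peak 1 lay 50621 bp from the start, beyond the end of the gene, and had levels of 44.3 and 44.9 against 102 and 98.0, a 2.25-fold rise, and 76.6% of its bases were in masked repeats. The genotypes were well apart in both peaks, and the replicates of Sin3B-/- were less alike in the intron peak. After centring neither peak passed, with adjusted p-values of 0.10 and 0.13.

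Among true ribosomal proteins of the cytosol, the largest rise was at Rps9, a protein of the small subunit. The peak lay downstream of the gene (chr7:3706945-3707411), and its levels of 86.3 and 85.4 in Sin3B+/+ and 162 and 186 in Sin3B-/- gave a 2.03-fold rise (log2 difference 1.01 ± 0.22 SE, adjusted p = 1.08e-05). Rpl22l1, a paralog of Rpl22 with a role in blood cell development, had the largest change at a gene start, with levels of 533 and 399 against 868 and 834 (1.83-fold, log2 difference 0.88 ± 0.22 SE, adjusted p = 0.00011). Both were above the table's median rise. Their centred differences of 0.26 and 0.13 did not pass, with adjusted p-values of 0.32 and 0.61.

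The most accessible start among true cytosolic ribosomal genes was that of Rpl13a, whose product sits on the large subunit and can be released from it to act on translation of selected messages. It had levels of 1201 and 1011 in Sin3B+/+ against 1624 and 2037 in Sin3B-/-, a 1.66-fold rise. Only Rps6ka5, which encodes the nuclear kinase MSK1, was higher among the cytosolic ribosomal names, with 1573 and 1263 against 1911 and 2349 (1.5-fold). Its peak centre lay 1808 bp after the gene start of the table but 55 bp from the start of another transcript of the same gene. The smallest changes were at Rps27, with 371 and 306 against 470 and 511 (1.45-fold), and at Rpl11, with 537 and 487 against 709 and 822 (1.49-fold). Rpl11, which encodes a ribosomal protein that binds Mdm2 when ribosome assembly fails, had its peak in an intron 22092 bp after the annotated gene start. As in every peak of the table, the genotypes did not overlap at either gene, and the limma adjusted p-values were 0.013 and 0.0082.

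Other starts of cytosolic ribosomal genes rose by similar amounts. Rps26, whose human counterpart is mutated in Diamond-Blackfan anemia, had levels of 312 and 244 in Sin3B+/+ and 413 and 418 in Sin3B-/- (1.49-fold). Rpl41, which encodes a very small basic protein of the large subunit, had 790 and 594 against 1102 and 1169 (1.64-fold). Rpl27, Rpl37, Rpl18 and the kinase gene Rps6ka2 lay between 1.56-fold and 1.76-fold. These starts formed a narrow band, and the libraries of a genotype differed within it by as much as the genes did.

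Several cytosolic ribosomal peaks lay away from the start given for their gene in the table. Rps14, known for its loss in the myelodysplastic 5q- syndrome, was assigned a peak 29728 bp upstream of the gene start of the table that lies in an intron of Ndst1, a heparan sulfate sulfotransferase gene. The start of another annotated transcript of Rps14 is 2367 bp from the peak centre, and its levels were 363 and 342 against 530 and 647 (1.67-fold). Rpl3, a protein close to the peptidyl transferase center, was assigned a peak 14967 bp from its start, with 105 and 75.8 against 155 and 174 (1.82-fold). The Rpl4 peak lay 496 bp from the start of Snapc5, a subunit gene of the snRNA activating complex, and had 82.1 and 59.3 against 129 and 124 (1.79-fold). The Rpl12 peak lay 5589 bp from its start, with 841 and 602 against 1022 and 1243 (1.57-fold). Of the 23 cytosolic ribosomal peaks 7 were nearer to an annotated start of another gene than to that of their own. Assignment to these genes is that of the table and shows proximity only.

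Among mitochondrial ribosomal names a single peak stood apart. Mrpl3 encodes a protein of the large mitochondrial subunit. Its peak is 501 bp wide and lies in an intron, centred 786 bp after the gene start (chr9:105053775-105054275), and does not contain an annotated start. Levels were 33.3 and 30.9 in the Sin3B+/+ libraries and 154 and 155 in the Sin3B-/- libraries. The replicates of each genotype were nearly equal, and the genotypes were 4.82-fold apart (log2 difference 2.24 ± 0.22 SE, adjusted p = 4.39e-23). This was rank 25 of 5332 in the table, and after centring the log2 difference was 1.48 with an adjusted p of 0.00015. The region has a GC content of 38.9%, beside a median of 56.4% in the mitochondrial ribosomal peaks at a gene start, and none of the ETS, NRF1, YY1, E-box, GC-box, E2F and CHR letters searched.

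The next largest rises of this class were at peaks more than 1000 bp from the gene start. Mrps36, a name since also given to a subunit of the oxoglutarate dehydrogenase complex, had a peak 6416 bp upstream with levels of 44.7 and 22.6 in Sin3B+/+ and 88.7 and 77.0 in Sin3B-/- (2.46-fold, log2 difference 1.35 ± 0.22 SE, adjusted p = 4.61e-09). Mrpl4, a large subunit protein, had a peak 5456 bp upstream with 22.1 and 14.4 against 43.1 and 49.0 (2.52-fold, log2 difference 1.32 ± 0.22 SE, adjusted p = 1.09e-08), the lowest levels of the 54 peaks. The pair of Sin3B+/+ libraries differed most at Mrps36. After centring, Mrpl4 had an adjusted p of 0.045 and Mrps36 of 0.17.

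Mrpl48 and Mrps11 each had a pair of peaks. Mrpl48 peak 1, in an intron, had levels of 30.1 and 27.4 in Sin3B+/+ and 57.5 and 87.0 in Sin3B-/- (2.51-fold, log2 difference 1.27 ± 0.22 SE). Mrpl48 peak 2, at higher levels of 321 and 304 against 418 and 485, had the smallest change of the class (1.45-fold, 0.53 ± 0.22 SE), and the RefSeq start of the gene lies in it although the start used in the table is 17121 bp away. The gene thus holds both a strongly and a weakly changed peak. The Mrps11 peaks, 17001 and 20935 bp from its start, had 92.2 and 98.4 against 199 and 216 and 41.1 and 31.9 against 71.9 and 89.0, and rose alike by 2.18-fold and 2.20-fold. Mrpl14 had a peak 17127 bp from its start with 215 and 217 against 299 and 344 (1.49-fold).

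Apart from Mrpl3, the peaks at starts of mitochondrial ribosomal genes rose by 1.45-fold to 1.80-fold. Mrpl41, a protein of the large subunit, had the most accessible one, at 1787 and 1559 in Sin3B+/+ and 2825 and 3190 in Sin3B-/- (1.80-fold, log2 difference 0.85 ± 0.22 SE). Mrpl47 had 964 and 836 against 1290 and 1317 (1.45-fold, 0.54 ± 0.22 SE), the smallest change at a start in this class. Mrpl32, with the pair of NRF1 cores in its promoter, had 384 and 382 against 609 and 591 (1.57-fold), and its replicates were nearly equal within each genotype. Mrpl17, with an NRF1 core just before its start, had 929 and 737 against 1196 and 1263 (1.48-fold). Mrpl1 had a pair of adjoining peaks, and each held an annotated start of the gene. Peak 1, over the gene start of the table, had 366 and 327 against 550 and 610 (1.68-fold). Peak 2, centred 666 bp after that start, had 360 and 277 against 452 and 494 (1.49-fold). Mrpl12, Mrpl54, Mrps23 and the intron peak of Mrps27 lay between 1.49-fold and 1.55-fold.

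Several peaks held more than the start of the named gene. Among peaks at a gene start, 4 of 10 mitochondrial ribosomal peaks (40.0%, Wilson interval 16.8 to 68.7), 2 of 13 cytosolic ribosomal peaks and 2 of 9 initiation factor peaks contained starts of at least 2 protein-coding genes, beside 14.7% (13.1 to 16.3) of the table. The intervals are wide with so few peaks, and only that of the mitochondrial ribosomal peaks lies above the table's share. The mitochondrial ribosomal partners were the proteasome subunit gene Psma2 beside Mrpl32, the complex I gene Ndufb5 beside Mrpl47, Apba3 beside Mrpl54 and Pnpla7 beside Mrpl41. Rpl18 shared its peak with the sphingosine kinase gene Sphk2, Rps27 with Rab13, Eif2b4 with Snx17 and Eif2s1 with the proton pump gene Atp6v1d. Accessibility of such a peak cannot be assigned to either gene.

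Among initiation factors the peaks with the largest rise were in and near the body of the gene. Eif5b encodes the GTPase that joins the ribosomal subunits at the end of initiation. Its peak 1 lies in an intron 13816 bp after the start (chr1:38011606-38012046), with levels of 28.3 and 35.7 in Sin3B+/+ and 120 and 108 in Sin3B-/- LT-HSCs, a 3.57-fold rise (log2 difference 1.81 ± 0.22 SE, adjusted p = 1.94e-15). Peak 2, also in an intron and 51842 bp from the start, had 102 and 100.4 against 225 and 184 (2.02-fold, 1.0 ± 0.22 SE, adjusted p = 1.35e-05). The genotypes were far apart in both peaks, and peak 1 kept an adjusted p of 0.010 after centring, with a log2 difference of 1.06. The GC content of peak 1 was 46.3%, and of the motifs searched it held only the CHR letters TTTGAA.

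Eif3i, a subunit of the scaffold factor eIF3, had a peak downstream of the gene with 34.7 and 27.1 in Sin3B+/+ and 75.0 and 64.0 in Sin3B-/- (2.25-fold, log2 difference 1.15 ± 0.22 SE, adjusted p = 5.61e-07). Eif2s3x, which encodes the GTP-binding γ subunit of eIF2, had a peak at its start with 355 and 244 against 455 and 518 (1.62-fold) and a second 34910 bp away with 548 and 367 against 640 and 801 (1.58-fold). The distant Eif2s3x peak was the higher of the pair in all 4 libraries.

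Starts of initiation factor genes had the highest levels of the 3 classes. Eif4a1, the RNA helicase of the cap-binding complex, had 1969 and 1501 in Sin3B+/+ and 3045 and 3111 in Sin3B-/- (1.77-fold, log2 difference 0.84 ± 0.22 SE, adjusted p = 0.00023), the highest mean of the 54 peaks. Eif4g2, an eIF4G relative that does not bind the cap-binding protein, was the next highest of the class at 1413 and 1333 against 1864 and 1850 and had the smallest change of all 54 peaks (1.35-fold, 0.44 ± 0.22 SE, adjusted p = 0.043). With the replicate block its adjusted p was 0.078, the only one of the 54 that no longer passed. Eif4a1 was above the table's median rise and Eif4g2 near its lower end.

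The eIF2 module was represented by 5 genes. Eif2s1, the α subunit, had 1117 and 789 in Sin3B+/+ and 1434 and 1387 in Sin3B-/- (1.48-fold), and Sin3B+/+ replicate 2 was well below replicate 1. Eif2b4, a subunit of the factor that exchanges GDP on eIF2, had 908 and 703 against 1158 and 1324 (1.54-fold). Eif5, which stimulates GTP hydrolysis by eIF2, had 1068 and 821 against 1346 and 1650 (1.59-fold). Eif2ak3, the PERK kinase that phosphorylates the α subunit under endoplasmic reticulum stress, had 1076 and 981 against 1436 and 1687 (1.52-fold). Together with Eif2s3x, these starts rose within a range of 1.48-fold to 1.62-fold. Eif1ax, which encodes the scanning factor eIF1A, had 559 and 476 against 739 and 889 (1.57-fold), and Eif3f, an eIF3 subunit, had 317 and 356 against 492 and 534 (1.52-fold). Eif3f and the Eif5b peak 1 were the 2 initiation factor peaks where Sin3B+/+ replicate 2 was the higher of its pair.

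**Figure D4:**
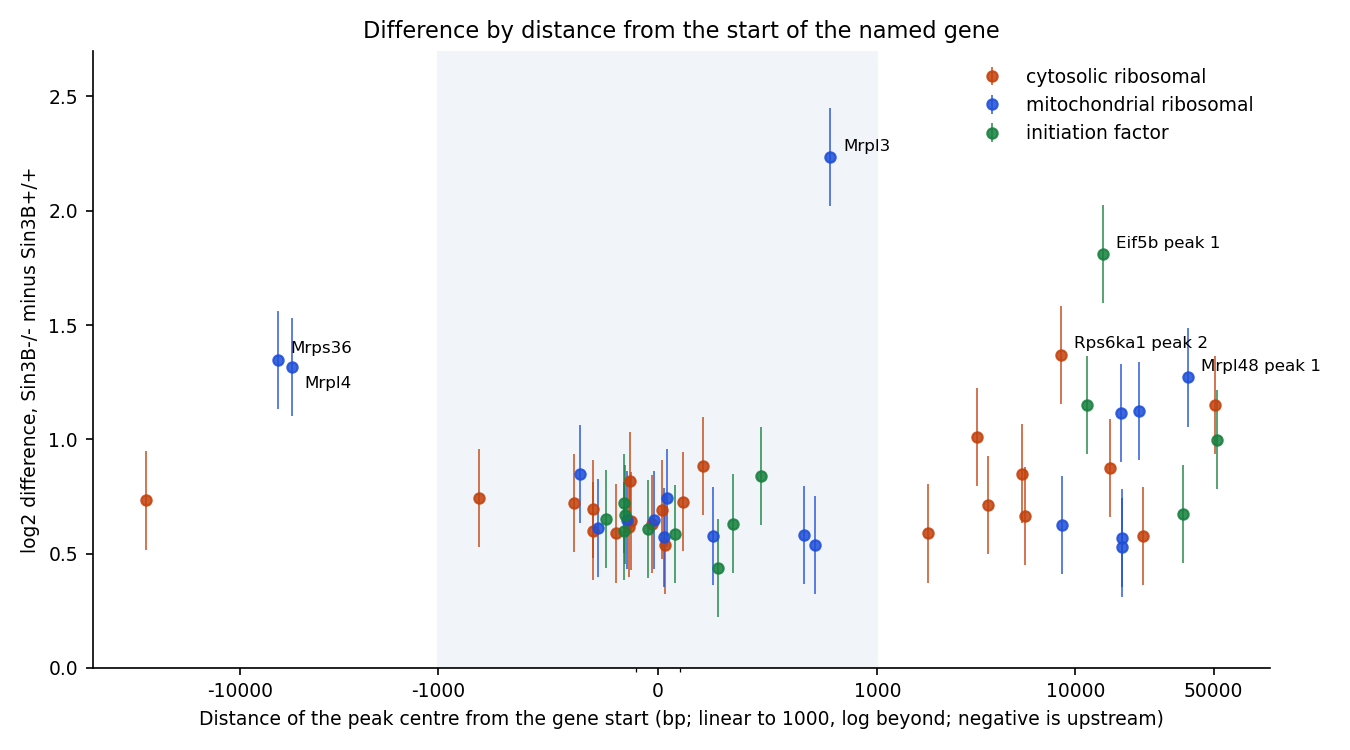
Log2 difference from limma (Sin3B-/- minus Sin3B+/+, bars are the SE of 0.22) of the 54 peaks against the distance of the peak centre from the start of the assigned gene in bp, linear within 1000 bp (shaded) and logarithmic beyond, with negative values upstream. Inside the shaded band Mrpl3 lies at 2.24 and the others between 0.44 and 0.88, and the other labelled peaks lie outside it.

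Genes of other steps of protein synthesis moved in the same direction, which was that of 95.7% of the table. Among elongation and termination factors 2 of 16 genes had a peak, and all 3 peaks were called higher. Etf1, the release factor that reads stop codons, had 1284 and 1037 in Sin3B+/+ and 1841 and 2001 in Sin3B-/- at its start (1.66-fold). Poly(A) binding proteins and ribosomal proteins with other names had a peak at 3 of 14 genes and 3 of 3 peaks called higher, and mitochondrial translation factors at 1 of 10 genes and 1 of 1.

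Ribosome biogenesis, the longest of these lists, had a peak at 19 of 65 genes, beside 15.7% of all protein-coding genes, and 23 of 23 peaks were called higher with a median log2 difference of 0.92, beside 0.75 for the table. After centring 5 of these 23 were still called higher, beside 7.01% of the table, and 0 lower. Rrp1, a nucleolar protein of large subunit processing, had an intragenic peak with 43.4 and 25.4 in Sin3B+/+ against 142 and 210 in Sin3B-/- (5.13-fold), and Riok1, a kinase of small subunit maturation, a peak 1047 bp after its start with 76.2 and 46.3 against 208 and 211 (3.42-fold). Aminoacyl-tRNA synthetases had peaks at 10 of 39 genes, with 11 of 11 called higher and a median of 0.70. A peak 11007 bp from the start of Aars2, the mitochondrial alanyl-tRNA synthetase, had 18.3 and 21.9 against 195 and 225, and its 10.4-fold rise was the largest ratio in the table. These genes were listed with earlier results of the same data known, so the counts describe them and test nothing.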

How the data were processed

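ATAC-Seq was measured in 2 Sin3B+/+ and 2 Sin3B-/- libraries of LT-HSCs, each pooled from 2 mice, and genotypes and replicate numbers were taken from the sample titles. Nothing states that the libraries were made on separate days, and p-values measure only the spread between these libraries. After trimming, the authors mapped reads with Bowtie2, dropped duplicates (sambamba), called peaks (MACS2) and compared genotypes through DiffBind and DESeq2, whose versions were not given in the sources used here. The deposited table holds peaks below an FDR of 0.05, and the copy used here is shorter than the list the study describes. Its values per library, as deposited by the authors, are a signal, made by counting the reads in each peak and multiplying them by a factor for the library. Its log2 levels and folds and its p-values, which the authors computed, were not used. The processing notes name mm9, but the gene identifiers and coordinates fit GRCm38: 5330 of 5332 were found in GENCODE M21, 96.6% with the same start and end, and positions and sequences here are on GRCm38. Total depth is unknown. A floor of 3 steps was 0.684 and 1.03 in Sin3B+/+ and 1.87 and 3.0 in Sin3B-/-, below every level given.

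limma 3.58.1 (R 4.3.3) was fitted to log2(level + 1) of all 5332 peaks without a block, with Benjamini-Hochberg adjustment. A fold is the ratio of group means, a log2 difference with an SE is that of limma, and a class median is of log2(mean + 1) differences. A pseudocount understates the change of low peaks. On simulated levels limma recovered 94.5% of 200 peaks changed 2-fold among 5332 and called 0.175% of the others. Of the 54 peaks only 12 at least doubled, and recovery of smaller rises was not tested. Nor was a table tested in which 95.7% of peaks are called higher, so these rates do not describe the calls made here. Peaks were named by class as the 4 largest rises, the 2 smallest changes, the 2 highest levels, genes with several peaks and peaks over 10000 bp from the gene start, which gave 33 peaks, 30 of them given here. Single values of 5 of the 54 peaks are not reported here. The others were named after their values were seen. Members, lists, motifs and tests were chosen with earlier results of these data known. Software was Python 3.11.15, numpy 2.4.6, pandas 2.3.3, scipy 1.17.1, pysam 0.24.0 and matplotlib 3.10.9. Alternatives were the replicate block, centring, pseudocounts of 0.5 and 5, a mean level of at least 30, an FDR under 0.01, leaving out the kinases or each library, 1 peak for each gene, and gene starts within 500 or 3000 bp.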

Additional observations from a re-analysis of the deposited data

How the results depend on the processing

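Centring each library on its median changed the most. The calls higher fell to 3 of 54, with 0 cytosolic ribosomal, 2 mitochondrial ribosomal and 1 initiation factor peak, and the class medians turned to -0.040, -0.11 and -0.082. Among 30 named peaks it reversed 14: Eif4g2 (-0.32), Mrpl48 peak 2 (-0.23), Mrpl47 (-0.21), Rps27 (-0.21), Mrpl14 (-0.18), Rpl11 (-0.18), Eif2s1 (-0.17), Mrpl1 peak 2 (-0.17), Rps6ka5 (-0.16), Eif2s3x peak 1 (-0.078), Eif2s3x peak 2 (-0.033), Rpl13a (-0.030), Rps14 (-0.020) and Mrpl1 peak 1 (-0.0089). Centring lowers every difference by 0.75, and whether the shift of the whole table is in the cells or in the scaling was not tested. After centring, limma also no longer used a single spread for every peak. Mrps36 had a centred difference of 0.60 with a limma adjusted p of 0.17, and Mrpl4 one of 0.56 with 0.045.

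Leaving out 1 library gave 22 to 54 calls, with 9 to 23 cytosolic ribosomal, 9 to 18 mitochondrial ribosomal and 4 to 13 initiation factor peaks, the fewest without Sin3B-/- replicate 2; the lone library left in a genotype is then assumed to vary like the others. For these fits the share of the table called is not given here. The counts therefore do not show whether the fall was special to these peaks. Without 1 library the class medians ran from 0.53 to 0.88, 0.61 to 0.81 and 0.54 to 0.87, the lowest without Sin3B+/+ replicate 2. The replicate block called 53 peaks, and 12 of 13 initiation factor peaks. Same-numbered libraries came from different mice, and the correlation of their deviations across peaks was -0.10, so the crossed pairing, added after seeing the data, was fitted as well and called 54. An FDR under 0.01 left 50 calls, and the share of the table at that threshold is not given here. Both other pseudocounts called 54, a mean level of at least 30 removed 0 peaks, and leaving out the kinases or keeping 1 peak for each gene moved no class median by more than its spread between libraries. With starts within 500 bp the class shares were 52.2%, 38.9% and 69.2%. The share of the table within 500 bp is not given here, so these cannot be set beside its share within 1000 bp. A count test with edgeR was planned but not run, because the deposited values are scaled.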

Other observations

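Some of the 22 peaks away from the start of their assigned gene had the base composition of promoters. The ratio of observed to expected CpG was 0.88 in the distant Eif2s3x peak, 0.84 in the Rps6ka5 peak, 0.64 in the Rpl12 and Mrps27 peaks, beside a median of 0.22 over the 22 peaks and 0.76 over the 32 peaks at gene starts. Rps6ka5 has an annotated transcript start in its peak, and the others hold none. The Eif2s3x and Rpl12 peaks each held an ETS core, and their mean levels were 589 and 927, beside a median of 739.5 over the peaks at gene starts. Their log2 differences of 0.67 and 0.66 were close to the median of peaks at gene starts.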
